A study of Arabidopsis thaliana with 8 samples.

Results

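The receptor kinases ANX1 (AT3G04690), ANX2 (AT5G28680), AT4G39110 and AT2G21480 were followed in flower clusters of Arabidopsis thaliana that carry mutations in DDM1, RDR6 or both. They are the pollen members of the malectin-like receptor kinase family, and each was measured by 1 probe set of its own, so that 4 of the 22746 probe sets tested are described. The arrays were Affymetrix ATH1 arrays, on which a probe set reports the RNA of a gene as a log2 signal. Tissue of flower stages 9 to 12 was pooled (n = 3 per the labels) and 6 ug of total RNA was used per array. The 4 genotypes had 2 biological replicates each. Col-0 is the wild type, ddm1-2 lacks normal function of the chromatin remodeller DDM1, rdr6-15 that of the RNA-dependent RNA polymerase RDR6, and ddm1-2 rdr6-15, called the double mutant here, carries both alleles. All plants were grown in long days, and how many generations the mutant lines had been propagated is not given in the sources used here. Both genes act in the silencing of transposons, DDM1 through DNA methylation and RDR6 through secondary small RNAs.

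The family is named after a receptor kinase of Catharanthus roseus and carries malectin-like domains outside the cell and a kinase domain inside it. ANX1 and ANX2 act together to keep the wall of the growing pollen tube intact until the tube reaches the ovule, and tubes that lack both burst early. AT4G39110 and AT2G21480, known as BUPS1 and BUPS2, form complexes with ANX1 and ANX2 at the tube surface. The complex binds the pollen peptides RALF4 and RALF19, with the GPI-anchored proteins LLG2 and LLG3 as co-receptors. The leucine-rich repeat extensins LRX8 to LRX11 bind the same peptides in the wall, and the cytoplasmic kinase MRI (MARIS) acts downstream of the receptors. Transcripts of these genes accumulate late in pollen maturation, so in whole flower clusters their signal depends on how much maturing pollen the sample holds. In such bulk tissue, fewer pollen grains and less RNA per grain cannot be told apart.

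A floor for real signal was taken from the 27 Bacillus control probe sets of the array, which match no plant transcript. The highest of their means, 3.56, is the limit called control level here. That limit is set by 1 of the 27, and the other means lay between 2.27 and 2.76. On single arrays the control that sets it lay between 3.04 (ddm1-2 replicate 2) and 3.97 (rdr6-15 replicate 1), while the same limit was used for all arrays. Array medians lay between 3.73 and 3.81. The array of rdr6-15 replicate 1 stood apart, with correlations to the other arrays of 0.852 to 0.879 across probe sets. Differences between rdr6-15 and Col-0 are therefore also given without it. No probe set was matched to DDM1 or RDR6, so the mutated genes themselves were not analysed here.

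AT4G39110 was above control level on 6 of the 8 arrays and was lower on every mutant array than on either Col-0 array. Its log2 signal was 6.42 and 6.74 in Col-0, at the 86.0 and 88.3 percentiles of all probe sets on those arrays. In ddm1-2 it was 4.50 and 4.01, in the double mutant 4.36 and 3.31, and in rdr6-15 it was 3.42 on replicate 1 and 5.91 on replicate 2. The Col-0, ddm1-2 and double mutant replicates thus lay 0.33, 0.49 and 1.05 apart, while the rdr6-15 replicates lay 2.49 apart. Only rdr6-15 replicate 1 and replicate 2 of the double mutant were at control level.

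ANX2, the partner of ANX1, was above control level on 3 arrays. Its signal was 3.77 and 4.83 in Col-0, 2.94 and 2.56 in ddm1-2, 2.64 and 3.65 in rdr6-15, and 2.82 and 2.42 in the double mutant. Both Col-0 arrays and rdr6-15 replicate 2 were those above the limit, and the lower Col-0 value was 0.11 above rdr6-15 replicate 2. On Col-0 replicate 1 the control that sets the limit itself read 3.79, beside 3.77 for ANX2.

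AT2G21480, the close relative of AT4G39110, was above control level on 1 array, Col-0 replicate 2. Its signal was 3.46 and 4.28 in Col-0, 3.15 and 2.66 in ddm1-2, 2.68 and 3.34 in rdr6-15, and 2.99 and 2.57 in the double mutant. ANX1 was likewise above the limit on Col-0 replicate 2 only. Its signal was 3.23 and 3.98 in Col-0, 2.94 and 2.71 in ddm1-2, 2.92 and 2.93 in rdr6-15, and 2.90 and 2.78 in the double mutant. For both genes the Col-0 values lay above all 6 mutant values, by 0.12 for AT2G21480 and 0.28 for ANX1, but these are small distances at the foot of the scale.

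**Figure D1:**
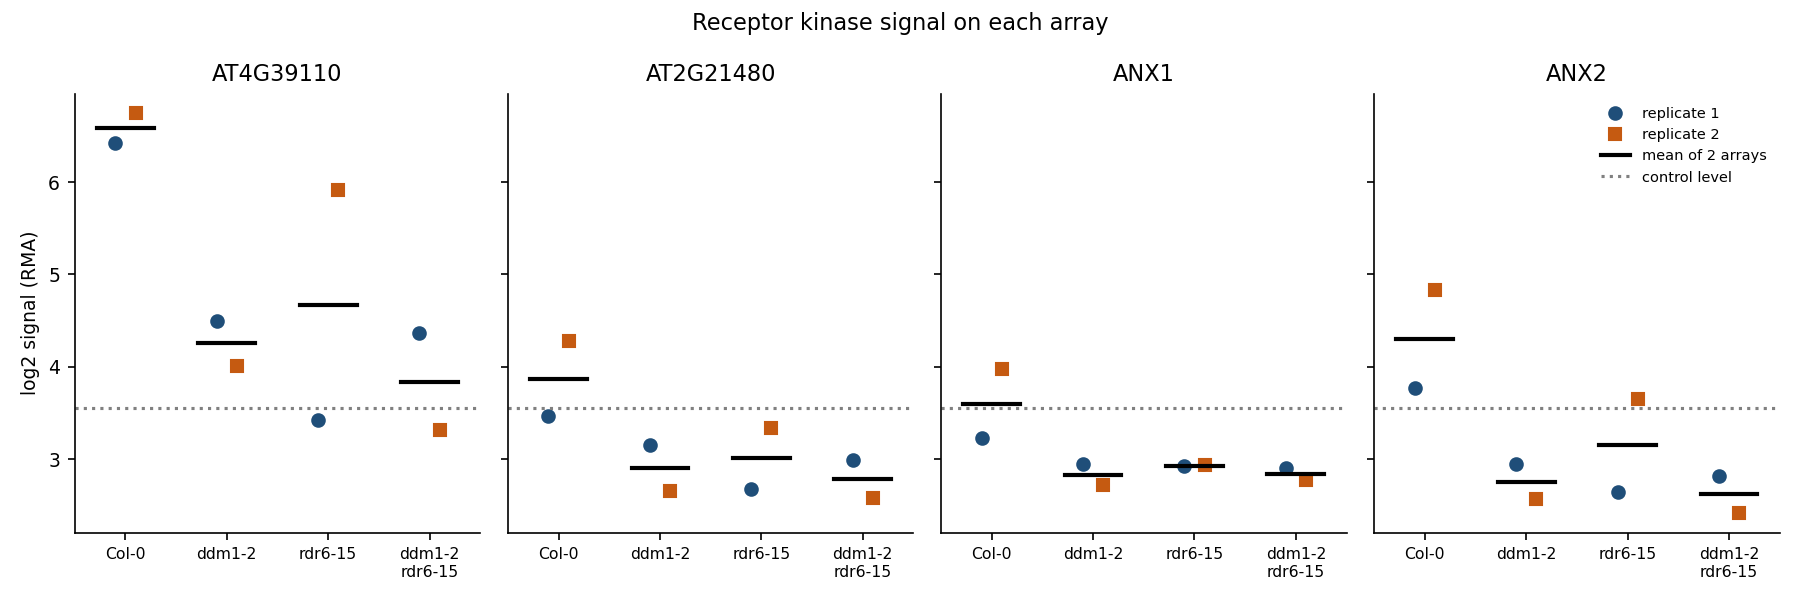
Log2 signal of each receptor kinase on each array (vertical axis), by genotype (horizontal axis); points are arrays, bars are means of the 2 arrays and the dotted line is control level at 3.56. In each panel both Col-0 points lie above all 6 mutant points, and AT4G39110 ranges from 6.74 on Col-0 replicate 2 to 3.31 on replicate 2 of the double mutant.

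All 4 receptor kinases thus had both Col-0 arrays above all 6 mutant arrays, as had 8.01% of all probe sets (1823 of 22746). Their order over the remaining arrays was alike too. AT4G39110, ANX2 and AT2G21480 each had rdr6-15 replicate 2 as the highest mutant array, ahead of ddm1-2 replicate 1 and replicate 1 of the double mutant. For ANX1 the highest mutant array was ddm1-2 replicate 1. Over the 8 arrays the pairwise correlations were 0.984 for ANX2 with AT2G21480, 0.940 for ANX2 with AT4G39110, 0.931 for ANX1 with AT2G21480, 0.923 for ANX1 with ANX2, 0.919 for AT4G39110 with AT2G21480 and 0.764 for ANX1 with AT4G39110. These describe 8 arrays that fall into genotypes and carry no test. Without rdr6-15 replicate 1 they ranged from 0.792 to 0.984.

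In the comparison of ddm1-2 with Col-0, which asks what changes when DDM1 is lost and RDR6 is present, AT4G39110 had a mean of 4.25 ± 0.35 in ddm1-2 and 6.58 ± 0.23 in Col-0 (SD, n = 2 each). The difference was -2.33 on the log2 scale (SE 0.76, limma adjusted p = 0.401), or 5.02-fold. ANX2 differed by -1.55 (SE 0.45, adjusted p = 0.328), from 4.30 ± 0.76 to 2.75 ± 0.27. Since ANX2 was at control level in ddm1-2, its level was at least 1.67-fold lower there. AT2G21480 and ANX1 differed by -0.97 and -0.77 (adjusted p = 0.484 and 0.41), and as both ended at control level their limits were at least 1.24-fold and 1.03-fold.

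With all 8 arrays in the fit, 0 of the 4 receptor kinases passed the threshold of 0.05, where 0.171% of all probe sets were called lower. By the unadjusted p of limma 4 of 4 were under 0.05, beside 956 of all 22746 probe sets lower at that p. The arrays of ddm1-2 and Col-0 did not overlap for any of the 4, with 24.5% of all probe sets lower in that way. The median difference of the 4 was -1.26, or -0.53 with the 3 at control level set to their limits, beside -0.01 for all probe sets. The standard error of AT4G39110 is shared by all genotypes and holds the spread of rdr6-15, whose SD was 1.76. Without rdr6-15 replicate 1 the difference was the same with an SE of 0.32, and AT4G39110 was called (adjusted p = 0.00544), as was ANX2 (adjusted p = 0.0324), so that 2 of the 4 were called lower where 2.62% of all probe sets were. With only the Col-0 and ddm1-2 arrays in the fit the same 2 were called (adjusted p = 0.000214 and 0.0187), beside 3.14% of all probe sets. The calls made without rdr6-15 replicate 1 also came without replicate 2 instead, since a lone array adds nothing to the shared spread. They did not come with an array of any other genotype left out.

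The comparison of the double mutant with Col-0 shows the loss of both genes, and shares its Col-0 arrays with the one above. AT4G39110 had a mean of 3.84 ± 0.74 in the double mutant (SD, n = 2), a difference of -2.74 (SE 0.76, adjusted p = 0.345) or 6.69-fold. ANX2 differed by -1.68 (SE 0.45, adjusted p = 0.32), again at least 1.67-fold with the double mutant at control level. AT2G21480 differed by -1.09 and ANX1 by -0.76 (adjusted p = 0.495 and 0.498), with the same limits as in ddm1-2.

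By limma 0 of the 4 were called in the double mutant, with 0.101% of all probe sets called lower. At an unadjusted p under 0.05 were 4 of 4 receptor kinases, beside 1030 of all 22746 probe sets lower at that p. No array of the double mutant overlapped with Col-0 for any of the 4, as for 21.1% of all probe sets. Without rdr6-15 replicate 1, AT4G39110 and ANX2 were called lower (adjusted p = 0.00307 and 0.0243), where 2.86% of all probe sets were. Those 2 were also called with only the Col-0 and double mutant arrays in the fit (adjusted p = 0.00792 and 0.0469), beside 2.27% of all probe sets. As in ddm1-2, the calls came with either rdr6-15 array left out, and not with an array of any other genotype left out.

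Plants that lack RDR6 and keep DDM1 (rdr6-15 against Col-0) gave unlike replicates. AT4G39110 had a mean of 4.67 ± 1.76 in rdr6-15 (SD, n = 2), a difference of -1.92 (SE 0.76, adjusted p = 0.486). With replicate 2 alone the difference was -0.67, and with replicate 1 alone, the array that stood apart, it was -3.16. In such fits the lone array is assumed to vary like those of the other genotypes. ANX2 differed by -1.15 (adjusted p = 0.474), with 1 of its 2 rdr6-15 arrays above control level and a limit of at least 0.69 on the log2 scale, and by -0.65 with replicate 2 alone. AT2G21480 differed by -0.86 and ANX1 by -0.67 (adjusted p = 0.5 and 0.468), and with replicate 2 alone by -0.53 and -0.67. Both were at control level on both rdr6-15 arrays, so their limits were at least 0.31 and 0.04.

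Of the 4, 0 were called in rdr6-15 by limma, where 0.0044% of all probe sets were called lower. An unadjusted p under 0.05 was found for 3 of the 4, beside 1203 of all 22746 probe sets lower at that p. None overlapped with Col-0, against 16.1% of all probe sets lower in that way. With replicate 2 alone 0 were called, and 0.101% of all probe sets were.

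**Figure D2:**
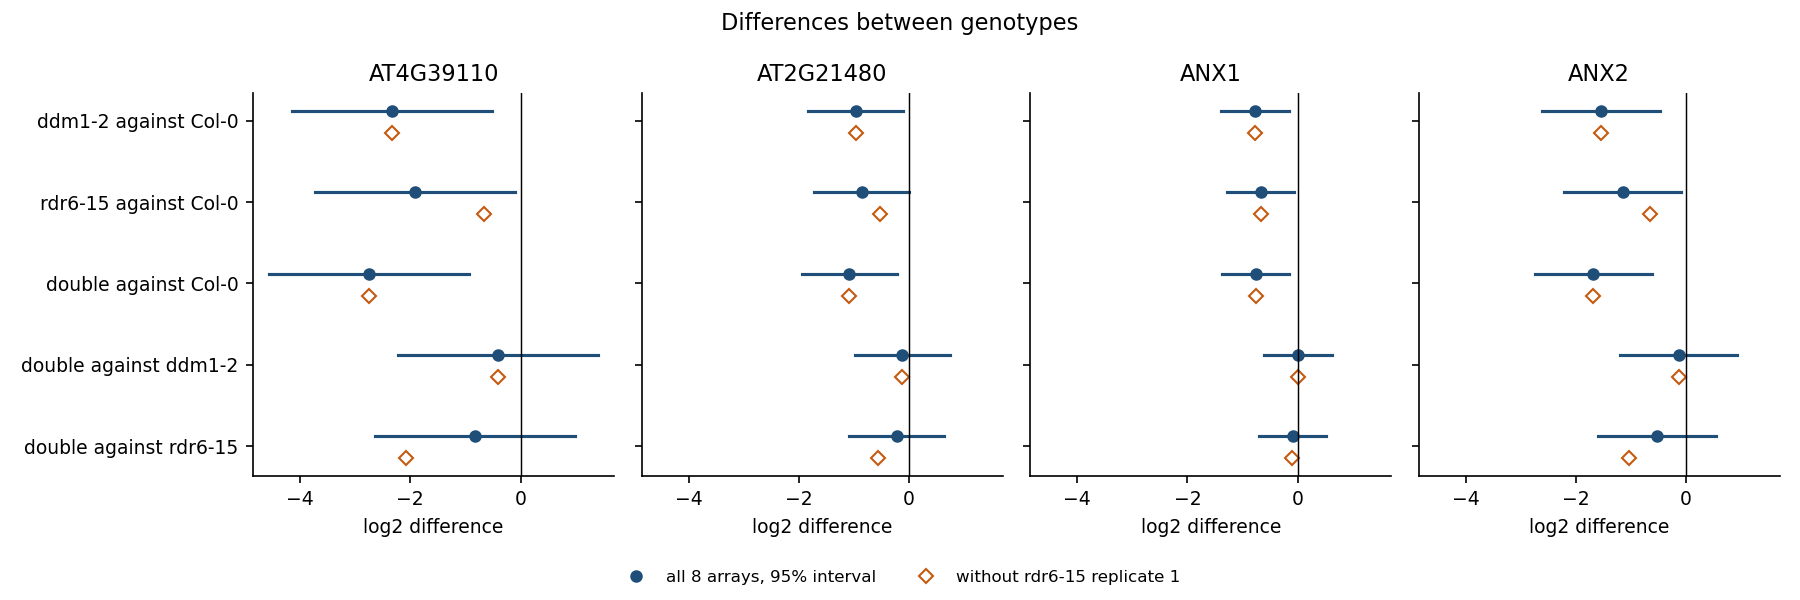
Log2 difference (horizontal axis) of each receptor kinase in 5 comparisons (vertical axis), with the 95% interval of the fit to all 8 arrays, and as open diamonds the difference without rdr6-15 replicate 1. For AT4G39110 leaving out that array moves rdr6-15 against Col-0 from -1.92 to -0.67, while ddm1-2 and the double mutant against Col-0 stay at -2.33 and -2.74.

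The double mutant was set against each single mutant to ask what the second mutation adds. Against ddm1-2, AT4G39110 differed by -0.41, with a 95% interval from -2.23 to 1.40 (adjusted p = 1). ANX1, ANX2 and AT2G21480 were at control level in both genotypes, so that no change below the limit could be seen. Arrays overlapped for all 4, and 0 of the 4 were called by limma or had an unadjusted p under 0.05, with 0.0528% of all probe sets called lower. Against rdr6-15, AT4G39110 differed by -0.83, with a 95% interval from -2.64 to 0.99 (adjusted p = 0.841). The double mutant values of 4.36 and 3.31 lay on either side of rdr6-15 replicate 1 at 3.42 and below replicate 2 at 5.91. Without replicate 1 the difference was -2.07 (adjusted p = 0.131), and without replicate 2 it was 0.42 (adjusted p = 0.532), so its direction turned with the array kept. In this comparison too 0 of the 4 were called by limma and 0 had an unadjusted p under 0.05, and 0% of all probe sets were called lower.

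The interaction, the difference between the ddm1-2 effect in an rdr6-15 background and in plants with RDR6, was above 0 for all 4 receptor kinases, with 1.50 for AT4G39110 (SE 1.08, adjusted p = 0.851), 1.02 for ANX2, 0.74 for AT2G21480 and 0.68 for ANX1 (adjusted p = 0.831, 0.842 and 0.812). By limma 0 of the 4 were called and 0 had an unadjusted p under 0.05, and in either direction 0.00879% of all probe sets were called. The value for AT4G39110 was 0.26 without rdr6-15 replicate 1 and 2.75 without replicate 2. Its size and its side of the threshold thus rested on which rdr6-15 array was kept. Without replicate 2, rdr6-15 was represented only by the array that stood apart. Without replicate 1 the values for ANX2, AT2G21480 and ANX1 were 0.51, 0.41 and 0.68 (adjusted p = 0.743, 0.772 and 0.564). The mutant levels of these 3 lay at control level on all arrays but 1, ANX2 on rdr6-15 replicate 2, which limits what this contrast can show for them.

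Among the other genes of the pathway, the ligands RALF4 and RALF19 and the co-receptors LLG2 and LLG3 were matched to no probe set. All 4 extensins that bind the same peptides in the wall were matched, and their values ran alongside those of the receptor kinases. LRX9 (AT1G49490) had 7.35 and 7.996 in Col-0, 4.76 and 4.07 in ddm1-2, 3.23 and 6.72 in rdr6-15, and 5.27 and 2.78 in the double mutant. As for AT4G39110, the rdr6-15 replicates were far apart and both Col-0 arrays were the highest. The differences in ddm1-2 against Col-0 were -3.26 for LRX9, -3.02 for LRX8 (AT3G19020), -2.86 for LRX10 (AT2G15880) and -1.83 for LRX11 (AT4G33970), with a median of -2.94. LRX10 and LRX11 were at control level by mean in ddm1-2, with limits of at least 2.39 and 1.41, and with these the median was -2.70. In the double mutant against Col-0 the median was -2.93, and -2.58 with LRX8, LRX10 and LRX11 at their limits. In rdr6-15 it was -1.84, and -0.78 without replicate 1. With all arrays in that comparison 0 of the 4 were called by limma or had an unadjusted p under 0.05. Of all 22746 probe sets, 1203 were lower at that p. All 4 still lay below Col-0 without overlap, as did 16.1% of all probe sets. With all arrays 0 of the 4 extensins were called in ddm1-2 or the double mutant against Col-0 by limma (adjusted p = 0.19 to 0.54). In each, 4 of 4 had an unadjusted p under 0.05, beside 956 and 1030 of all 22746 probe sets lower at that p. All 4 lay below Col-0 without overlap, beside 24.5% of all probe sets in ddm1-2 and 21.1% in the double mutant. Without rdr6-15 replicate 1, 4 of 4 were called lower in each, where 2.62% and 2.86% of all probe sets were.

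Of the 8 genes listed downstream of the receptors, the kinase gene MRI (AT2G41970) was the 1 matched to a probe set. Its signal was 3.92 on both Col-0 arrays, 3.09 and 2.97 in ddm1-2, 3.25 and 3.24 in rdr6-15, and 3.11 and 2.89 in the double mutant. All 6 mutant arrays were at control level, so the means differed by at least 0.36 on the log2 scale in each mutant. The measured differences were -0.89 in ddm1-2 and -0.92 in the double mutant (limma adjusted p = 0.0929 and 0.107). Both were called without rdr6-15 replicate 1 (adjusted p = 0.0165 and 0.0151), where 2.62% and 2.86% of all probe sets were called lower. MRI differed by -0.67 in rdr6-15 (adjusted p = 0.328), and by -0.67 without replicate 1. None of the 14 genes listed for polar tip growth (ROP GTPase signalling, ion channels and pollen receptor kinases of the PRK family) was matched.

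**Figure D3:**
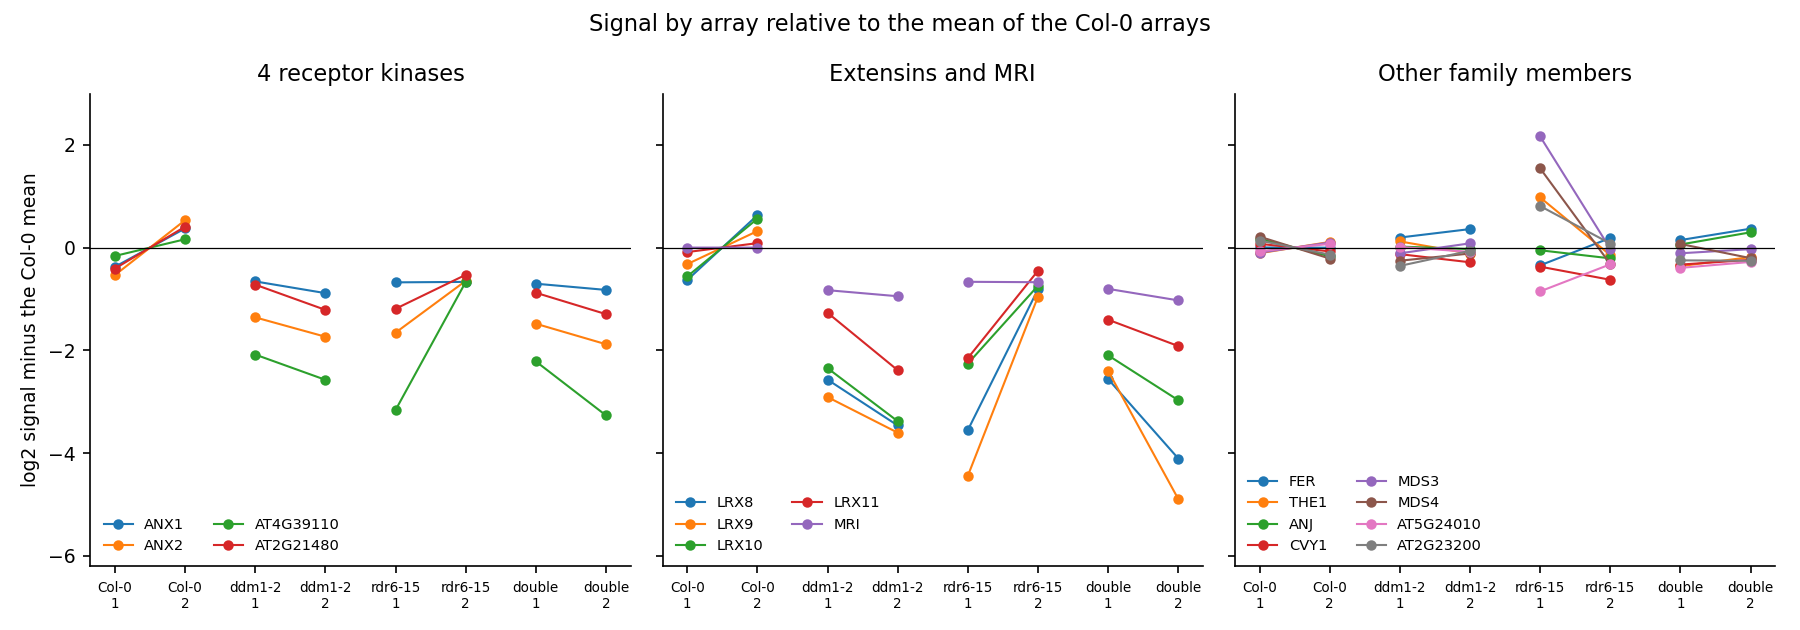
Log2 signal minus the mean of the Col-0 arrays (vertical axis) on each of the 8 arrays (horizontal axis), for the 4 receptor kinases, the 4 extensins with MRI, and 8 other members of the receptor family; lines join the replicates of a genotype. For each extensin both Col-0 points lie above all 6 mutant points of that gene, and FER, before the Col-0 mean is taken off, lies between 6.87 and 7.58 on all arrays.

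Of 13 other members of the receptor kinase family, 8 were matched. FER (FERONIA), the receptor that acts in the synergid cells of the ovule and in many growing tissues, had 7.22 and 7.21 in Col-0, 7.41 and 7.57 in ddm1-2, 6.87 and 7.40 in rdr6-15, and 7.36 and 7.58 in the double mutant. Its differences from Col-0 were 0.28 (ddm1-2), -0.08 (rdr6-15) and 0.26 (double mutant; adjusted p = 0.784, 0.931 and 0.953). Without rdr6-15 replicate 1 the value in rdr6-15 turned to 0.19. THE1 (THESEUS1), which senses wall damage in vegetative tissue, had 5.38 and 5.60 in Col-0 and differed by 0.00 in ddm1-2 and -0.27 in the double mutant (adjusted p = 0.999 and 0.997). On rdr6-15 replicate 1 THE1 had 6.46, above all 7 other arrays, and its difference in rdr6-15 was 0.41 with that array and -0.15 without it. AT5G24010 was above control level on 7 arrays, with a mean of 3.98 in Col-0 and differences of -0.04, -0.59 and -0.34 in ddm1-2, rdr6-15 and the double mutant, the second being -0.33 without replicate 1. The other 5 were at control level by mean in every genotype, among them ANJ (AT5G59700) and CVY1 (AT2G39360), which were so on every array. MDS3 (AT5G39020) and MDS4 (AT5G39030) were above that level on rdr6-15 replicate 1 alone, with 4.64 and 4.16, and AT2G23200 had 3.64 there.

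For these 8 probe sets 0 were called by limma in any of the 6 comparisons, with or without rdr6-15 replicate 1. With all arrays 2 had an unadjusted p under 0.05 in rdr6-15 against Col-0, 1 in the double mutant against rdr6-15 and 0 in the other comparisons. In the first 2 of these comparisons, 2270 and 1102 of all 22746 probe sets were under that p in either direction. Their median difference in ddm1-2 against Col-0 was -0.02, in the double mutant -0.16 and in rdr6-15 0.17, which turned to -0.18 without replicate 1. The difference in change between the pollen members and the others was not tested.

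Of 8 listed regulators of pollen transcription, 5 were matched, all MADS-box factors of the MIKC* type, which act as heterodimers late in pollen development. AGL66 had 4.08 and 4.45 in Col-0, 2.71 and 2.77 in ddm1-2, 3.28 and 3.20 in rdr6-15, and 2.95 and 2.65 in the double mutant. All mutant arrays were at control level. AGL66 fell in ddm1-2 by 1.52 (SE 0.20, limma adjusted p = 0.029) and fell by 1.46 in the double mutant (adjusted p = 0.0493), with a limit of at least 0.71 for both. In rdr6-15 it differed by -1.02 (adjusted p = 0.264), and by -1.07 without replicate 1. These calls held without either rdr6-15 array (adjusted p = 0.00299 and 0.00431), but with any 1 array of another genotype left out the adjusted p was 0.0694 to 0.289 for ddm1-2 and 0.17 to 0.45 for the double mutant. AGL65, above control level on all arrays, differed by -0.55 in ddm1-2 and -0.36 in the double mutant (adjusted p = 0.46 and 0.8). AGL30, AGL104 and the 1 further factor matched were at control level in every genotype.

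Markers of maturing pollen were low on the same arrays as the receptor kinases. Of 7 listed, 2 were matched: AT59, a pectate lyase, and AT5G45880, related to the tomato pollen protein LAT52. AT5G45880 had 9.45 and 9.88 in Col-0, 7.48 and 6.95 in ddm1-2, 2.68 and 8.80 in rdr6-15, and 7.70 and 4.82 in the double mutant. AT59 had 6.58 and 6.93 in Col-0, 4.36 and 3.49 in ddm1-2, 2.94 and 5.44 in rdr6-15, and 4.31 and 3.05 in the double mutant. The arrays that were low for these markers were those low for AT4G39110, and 0 of the 2 were called in any comparison with all arrays in the limma fit (adjusted p = 0.317 to 0.966 over the comparisons other than that with ddm1-2, where it was 1). In each mutant against Col-0, 1 of the 2 had an unadjusted p under 0.05. Of all 22746 probe sets, 956 (ddm1-2), 1203 (rdr6-15) and 1030 (double mutant) were lower at that p. Without rdr6-15 replicate 1, AT59 was called lower in ddm1-2 (adjusted p = 0.00622), where 2.62% of all probe sets were. In the double mutant both markers were called lower (adjusted p = 0.00486 for AT59 and 0.038 for AT5G45880), where 2.86% of all probe sets were. AT59 and AT5G45880 differed from Col-0 by -2.83 and -2.45 (ddm1-2), -2.57 and -3.92 (rdr6-15) and -3.07 and -3.40 (double mutant). The rdr6-15 values were -1.32 and -0.86 without replicate 1, and their median moved from -3.24 to -1.09. MGH3, the 1 sperm cell marker of 4 matched, was at control level in every genotype.

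Other tissues could be followed less fully. Of 9 tapetum markers 2 were matched: A9 (AT5G07230) and AMS, the latter at control level on all arrays. A9 had 3.31 and 2.60 in Col-0, 3.39 and 4.21 in ddm1-2, 2.62 and 4.43 in rdr6-15, and 3.64 and 4.02 in the double mutant. Opposite to the receptor kinases, A9 lay above both Col-0 arrays on all ddm1-2 and double mutant arrays. The differences were 0.84 and 0.87 (limma adjusted p = 0.753 and 0.899). Higher without overlap in this way were 25.3% of all probe sets in ddm1-2 and 24% in the double mutant. Both Col-0 arrays and ddm1-2 replicate 1 were at control level for A9, the last with 3.39 beside 3.31 on Col-0 replicate 1. In rdr6-15 the arrays of A9 overlapped with Col-0, with a difference of 0.57, and of 1.47 without replicate 1. The photosystem gene LHCB4.1, the 1 of 10 green tissue markers matched, differed from Col-0 by 0.59 (ddm1-2), 0.88 (rdr6-15) and 0.31 (double mutant; adjusted p = 0.519, 0.358 and 0.933), and was highest on rdr6-15 replicate 1 with 12.2. Without that array its rdr6-15 difference was 0.55. No marker of carpels (4 listed) or of floral organ identity (7 listed) was matched. What part the amount or stage of pollen, or the share of tapetum or green tissue, had in the lower receptor kinase signal was not tested.

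The genes whose pattern was most like the mean of the 4 receptor kinases were found by Pearson correlation over the 8 arrays, among 868 probe sets with one gene and a range of at least 2 log2 units. The closest were AT1G04470 (r = 0.992), LRX8 (0.990), the pectate lyase gene AT2G02720 (0.989), AT3G62640 (0.988), AT5G42170 (0.988) and AT2G33420 (0.987). AT1G03050, which codes for an adaptor protein of endocytosis with an ANTH domain, followed with 0.985, then SP1L4 (0.985), AT3G20300 (0.984) and the subtilase gene AT1G66210 (0.983). AT1G04470 had 5.39 and 6.42 in Col-0, 3.71 and 2.96 in ddm1-2, 2.41 and 4.50 in rdr6-15, and 3.42 and 2.26 in the double mutant. In all, 102 of the 868 (11.8%) had r of 0.9 or more. All points come from the same 8 arrays, and the ranking gives no test. Over the 7 arrays without rdr6-15 replicate 1, 314 probe sets kept a range of at least 2 log2 units. The rest of the 868 reached it only through that array. Among the 314, 7 of the 10 were again in the closest 10.

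**Figure D4:**
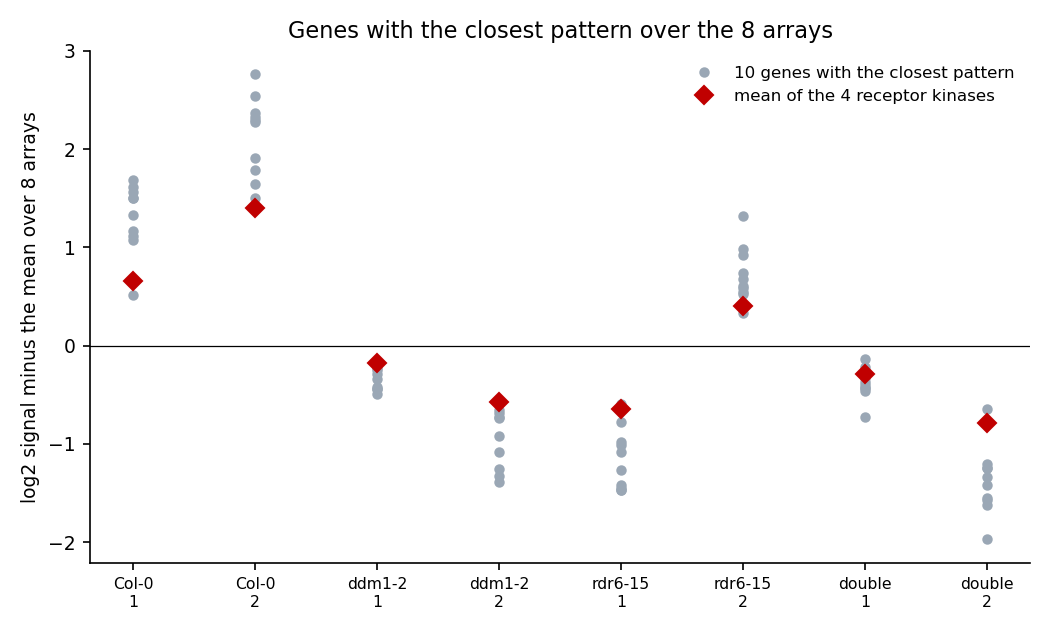
Log2 signal minus each gene's own mean over the 8 arrays (vertical axis), by array (horizontal axis), for the mean of the 4 receptor kinases (diamonds) and the 10 genes with the closest pattern (points). The mean of the 4 receptor kinases, before centring, is 4.22 and 4.96 in Col-0 and 3.96 on rdr6-15 replicate 2, and between 2.77 and 3.38 on the 5 other arrays.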

How the data were processed

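The authors deposited RMA log2 signals for ATH1 probe sets, per the submitters' processing notes, which name neither version nor settings. They were used unscaled. The 64 controls among 22810 probe sets were left out. Gene names came from the platform's annotation (13513 tested probe sets with one gene, 503 with several, 8730 unlisted) and loci from the TAIR10.1 RefSeq table (13436). Positions and sequences were not used here.

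One model with 4 genotype means was fitted by limma 3.58.1 (R 4.3.3; 4 residual and 2.82 prior degrees of freedom). P-values are two-sided, adjusted by Benjamini-Hochberg over 22746 probe sets, and called under 0.05. They rest on the spread between 2 biological replicates, pooled over the 4 genotypes, which limits precision. The code was tested on simulated data. Where a group mean is at control level, fold limits set each of its arrays to the higher of its value and 3.56. All limits given as "at least" are for the means and leave out the spread between arrays. The alternatives tried were the replicate number as a block, separate fits of the genotypes compared, quantile normalization, centring on array medians, omission of dim probe sets, omission of shared ones, a trended and robust variance, array weights, and omission of each array.

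Members and lists were chosen with earlier results of these data known. Named genes were the receptor kinases, all matched ligands, co-receptors, extensins, downstream and family genes, up to 4 per other list by mean signal, and the 10 closest by correlation. A search of promoter motifs was planned and not run, since no promoter sequence was used here.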

Additional observations from a re-analysis of the deposited data

How the results depend on the processing

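The receptor kinases were below Col-0 in ddm1-2, rdr6-15 and the double mutant under every alternative run (192 of 192 values). Most of these signs could not turn. With both Col-0 arrays above all 6 mutant arrays, leaving out any array cannot reverse them. The block, separate fits, filters, variance settings and array weights (equal within a genotype) leave the differences as they are. Only quantile normalization and centring could have turned a sign. Of 188 values under the alternatives other than leaving out single arrays, 180 kept their direction and their side of the threshold. With only the genotypes compared, AT4G39110 and ANX2 passed in ddm1-2 (-2.33 and -1.55) and in the double mutant (-2.74 and -1.68). With array weights AT4G39110 passed in both (-2.33 and -2.74) and ANX2 in the double mutant (-1.68). Against ddm1-2, ANX1 in the double mutant went from 0.0090 to -0.072 after quantile normalization, at control level on both sides. With the replicate number as block 0 of the receptor kinase calls changed; the deviations of same-numbered arrays correlated at -0.06 to 0.42 across genotypes, so the numbers were not taken as pairs.

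Leaving out 1 array moved the difference of ANX1 between -1.15 and -0.40 in ddm1-2, -1.05 and -0.30 in rdr6-15, and -1.14 and -0.39 in the double mutant. For ANX2 the ranges were -2.08 to -1.01, -1.69 to -0.62 and -2.22 to -1.15. For AT4G39110 they were -2.57 to -2.08, -3.16 to -0.67 and -3.27 to -2.22, and for AT2G21480 -1.37 to -0.56, -1.27 to -0.45 and -1.49 to -0.68. Without rdr6-15 replicate 2, only the array that stood apart was left. With it alone, ANX2, AT2G21480 and AT4G39110 differed from Col-0 in rdr6-15 by -1.66, -1.19 and -3.16. In the double mutant against ddm1-2 all 4 turned direction with single arrays: ANX1 -0.11 to 0.12, ANX2 -0.33 to 0.064, AT4G39110 -0.94 to 0.11 and AT2G21480 -0.37 to 0.13. Against rdr6-15 the ranges were -0.15 to -0.03, -1.03 to -0.03, -2.07 to 0.42 and -0.56 to 0.10 in that order, AT4G39110 and AT2G21480 turning without rdr6-15 replicate 2. The interaction lay at 0.31 to 1.05, 0.48 to 1.55, 0.26 to 2.75 and 0.33 to 1.15. The cause of these changes was not tested.

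The count of all probe sets called in ddm1-2 against Col-0 was 131, with 1313 when only the genotypes compared were fitted, 643 with array weights, 40 without shared probe sets and 31 to 1084 with 1 array left out. For the double mutant against Col-0 it was 71, with 705, 556 and 22 under the same settings, 39 with the replicate block and 22 to 884 with 1 array left out. For the double mutant against ddm1-2 it was 13, with 29, 38 and 1, 1 with the block, 24 with trend and robust variance and 0 to 44. Against rdr6-15 it was 37, with 17 for the genotypes compared, 11 without shared probe sets and 26 to 4927. For rdr6-15 against Col-0 it was 2, with 0 under the block, the genotypes compared, the dim filter and array weights, 1 after quantile normalization, 5 with trend and robust variance and 0 to 5414. For the interaction it was 2, with 0 under the block, 4 after quantile normalization or with trend and robust variance, 5 with array weights and 0 to 3810. Of the pathway and family probe sets, 1 (AGL66) was called in ddm1-2 and 1 (AGL66) in the double mutant, beside 0.171% and 0.101% of all probe sets called lower. Without rdr6-15 replicate 1, 6 were called in each (the 4 extensins, MRI and AGL66), beside 2.62% and 2.86% of all probe sets called lower. The calls of the extensins and MRI also came without rdr6-15 replicate 2 instead, and not with an array of any other genotype left out. The signal of ANX1, ANX2 and AT2G21480 in the mutants is at control level, except for ANX2 on rdr6-15 replicate 2, and this limits what the arrays can show of them.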
